A study of Rattus norvegicus with 8 samples.

Results

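Matrix metalloproteinases and their tissue inhibitors were followed in smooth muscle cells cultured from rat pulmonary arteries and given a nitric oxide donor. The 8 genes considered were Mmp2, Mmp3, Mmp9, Mmp14, Timp1, Timp2, Timp3 and Adamts1, chosen with earlier results of these data known. Their probe sets were taken by annotation to one of these symbols alone, with no use of the signals. This gave 9 of the 8799 probe sets of the array, 2 each for Mmp2 and Timp1 and 1 each for Mmp3, Mmp9, Mmp14, Timp2 and Timp3. Adamts1, a secreted protease that cleaves proteoglycans, was named by 0 probe sets of the annotation used and was not analysed here.

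The study measured RNA on 8 arrays of the Affymetrix rat U-34A type, with 2 arrays, numbered 1 and 2, in each of 4 groups. The groups were untreated cells (control) and cells exposed to S-nitrosoglutathione (GSNO), which releases nitric oxide, for 1, 2 and 4 h. All cells were primary smooth muscle cells grown from explants of pulmonary arteries of adult Sprague-Dawley rats, from which endothelium and adventitia had been stripped. The GSNO concentration was given as 100 μmol/L in the series design and as 100 mmol/L in the treatment protocol, and these data do not settle which is right. The untreated group had no stated time, so GSNO and time in culture cannot be told apart. The design speaks of 2 preparations of cells without tying them to the array numbers. If the arrays of a group came from a single preparation, the p-values measure only the spread between arrays.

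Matrix metalloproteinases are zinc enzymes made as inactive proenzymes that cut collagens, elastin, proteoglycans and growth factor carriers around the cell. Tissue inhibitors of metalloproteinases (TIMPs) bind the active enzymes and block them, and Timp2 also takes part, with the membrane enzyme encoded by Mmp14, in activating the Mmp2 proenzyme. In the pulmonary artery wall the balance of these proteins sets how fast smooth muscle cells turn over their matrix, and it is studied in the remodelling of pulmonary hypertension.

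The quantity given is the deposited signal, a linear brightness value per probe set scaled to the same trimmed mean on every array. The arrays had median signals of 99.7 to 140.5. A signal under the 40th percentile of its own array, which was 57.2 to 91.0, was treated as weak. Of the 10 smooth muscle markers on the array, 8 reached that limit on all 8 arrays, among them Acta2, Tagln, Cnn1 and Myh11, while Des did not reach it on 2 arrays, the minimum for being tested. The same was true of the endothelial markers Vwf, Kdr and Sele (4 of 7 kept), of the macrophage markers Itgam, Csf1r and Lyz2 (3 of 6 kept), and of 5 of 7 lung epithelial and 2 of 9 cardiac and skeletal muscle markers. Of the fibroblast and adventitial markers 7 of 7 were kept, and Lum, Pdgfra, Col1a1, Col3a1, Thy1 and Postn reached the limit on all 8 arrays. So did endothelial Flt1, macrophage Cd14, lung epithelial Sftpb, and Myh3 and Myl2 of cardiac and skeletal muscle. In bulk RNA, fewer cells of a type and less RNA per cell cannot be told apart. The arrays numbered 1 and 2 were scanned in separate runs with different fluidics protocols and chip lots. Preparation, run and lot thus cannot be told apart in a difference between the numbers. Among the arrays numbered 1, control and 2 h shared 1 recorded experiment and 1 h and 4 h another, and the 1 h array was alone in its chip lot.

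The control regions of Timp1 and Mmp3 are shown because the genes are textbook targets of the transcription factor AP-1. Among the members Timp1 differed most from control at 4 h, and Mmp3 was near the limit of measurement here. The stretches are the 150 bases before the transcript start in RefSeq (GRCr8), written 5′ to 3′ on the gene's strand, and capitals mark the AP-1 type motif TGAGTNA, searched on both strands. Timp1 lies at chrX:3771123-3771272 on the minus strand, within the span 3766509 to 3772578 that RefSeq gives the gene, and Mmp3 at chr8:12925131-12925280 on the plus strand, where the annotated gene begins at 12925267.
Timp1: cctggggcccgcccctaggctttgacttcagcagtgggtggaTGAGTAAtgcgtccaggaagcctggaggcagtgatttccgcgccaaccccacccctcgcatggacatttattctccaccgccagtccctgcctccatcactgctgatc
Mmp3: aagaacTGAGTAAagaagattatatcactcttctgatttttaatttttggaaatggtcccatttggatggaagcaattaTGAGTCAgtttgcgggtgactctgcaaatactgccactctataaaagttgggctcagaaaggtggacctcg
Timp1 held 1 such motif, beginning 108 bases before the start, and Mmp3 held 2, at 144 and 71 bases. The motif was present in 6.91% of 33469 rat promoter windows of this length. The core GGAAG, the shape bound by ETS factors, followed the Timp1 motif at 93 bases and preceded the second Mmp3 motif at 82 bases, and 47.0% of windows held it. Mmp3 had a TATAAA sequence at 32 bases, found in 8.001% of windows. Of the other members, Timp2, Timp3 and Adamts1 had entries and no TGAGTNA in this window, and Mmp2, Mmp9 and Mmp14 had no entry. These are matches of letters and not evidence of a bound site.

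Among the proteases, Mmp2 encodes gelatinase A, which degrades basement membrane collagen and denatured collagen. The Mmp2 probe set U65656 read 2961, 3017, 2694 and 3709 in control and at 1, 2 and 4 h on the arrays numbered 1. On the arrays numbered 2 it read 7015, 5155, 6141 and 5827 in the same order. Every array numbered 2 was above every array numbered 1, and each GSNO group overlapped control. The group means were 4988 ± 2867 in control, 4086 ± 1512 at 1 h, 4417 ± 2438 at 2 h and 4768 ± 1497 at 4 h (SD, n = 2 each). The log2 fold changes against control were -0.21, -0.16 and 0.03 at 1, 2 and 4 h. At 4 h the 95% interval ran from 0.435-fold to 2.39-fold, and from 0.768-fold to 1.35-fold with the array number as a block.

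The other Mmp2 probe set, X71466, was above the 40th percentile on 6 of 8 arrays. It read 140.7, 111.0, 86.5 and 82.9 in control and at 1, 2 and 4 h on the arrays numbered 1, and 86.9, 124.1, 38.6 and 90.8 on those numbered 2. At 2 h it lay below control on both arrays, by -0.72 ± 0.41 in log2 (SE; limma adjusted p = 1.00), and both 2 h arrays were under the 40th percentile of their own array.

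Mmp14 encodes a protease anchored in the cell membrane that cuts fibrillar collagen and activates the Mmp2 proenzyme. Its signal was 3232 and 2551 on the control arrays numbered 1 and 2, 2739 and 2890 at 1 h, 2824 and 2706 at 2 h, and 4657 and 3021 at 4 h. The 1 h and 2 h arrays lay inside the range of the control arrays. The 4 h array numbered 1 was the highest of the 8, while the 4 h array numbered 2 lay within the control range. The 4 h log2 fold change was 0.38 ± 0.27 (SE; limma adjusted p = 0.666, and 0.281 with the block), with an interval from 0.845-fold to 2.01-fold.

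Mmp3 and Mmp9 were at the lower end of what the array could measure. Mmp3 encodes stromelysin 1, which cuts proteoglycans and fibronectin and activates other proenzymes, and its signal ran from 26.9 to 103.1. It reached the 40th percentile on 2 arrays, the 1 h array numbered 2 and the 2 h array numbered 1, and it was kept in the tests through those arrays. On these arrays it read 83.9 and 103.1, and on the 6 others 26.9 to 67.9. The log2 fold change was 0.46 ± 0.48 at 1 h, 0.44 ± 0.48 at 2 h and -0.14 ± 0.48 at 4 h (SE), values set among signals too weak to order. Mmp9 encodes gelatinase B, a protease known mainly from leukocytes and from cells under inflammatory stimulation. Its signal ran from 12.98 to 32.1, below the 40th percentile on all 8 arrays, so it was not tested and no fold change is given.

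Timp1 was the inhibitor with the largest differences from control. It encodes a secreted inhibitor of most soluble metalloproteinases and is inducible by cytokines and growth factors. The probe set AI169327 read 1826, 2306, 2612 and 3087 in control and at 1, 2 and 4 h on the arrays numbered 1, and 1536, 1551, 1692 and 1994 on those numbered 2. On both sets of arrays the value was lowest in control and highest at 4 h, and both 4 h arrays were above both control arrays. The means were 2541 ± 773 at 4 h and 1681 ± 205 in control (SD, n = 2 each). The second probe set, designed on the same sequence and marked g, read 2485 and 1226 at 4 h on the arrays numbered 1 and 2, against 1175 and 848 in control. At 1 h and 2 h it lay between those values, at 1710 and 903, then 1900 and 914. Since both sets stem from 1 sequence, they are not independent measurements of Timp1.

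**Figure D1:**
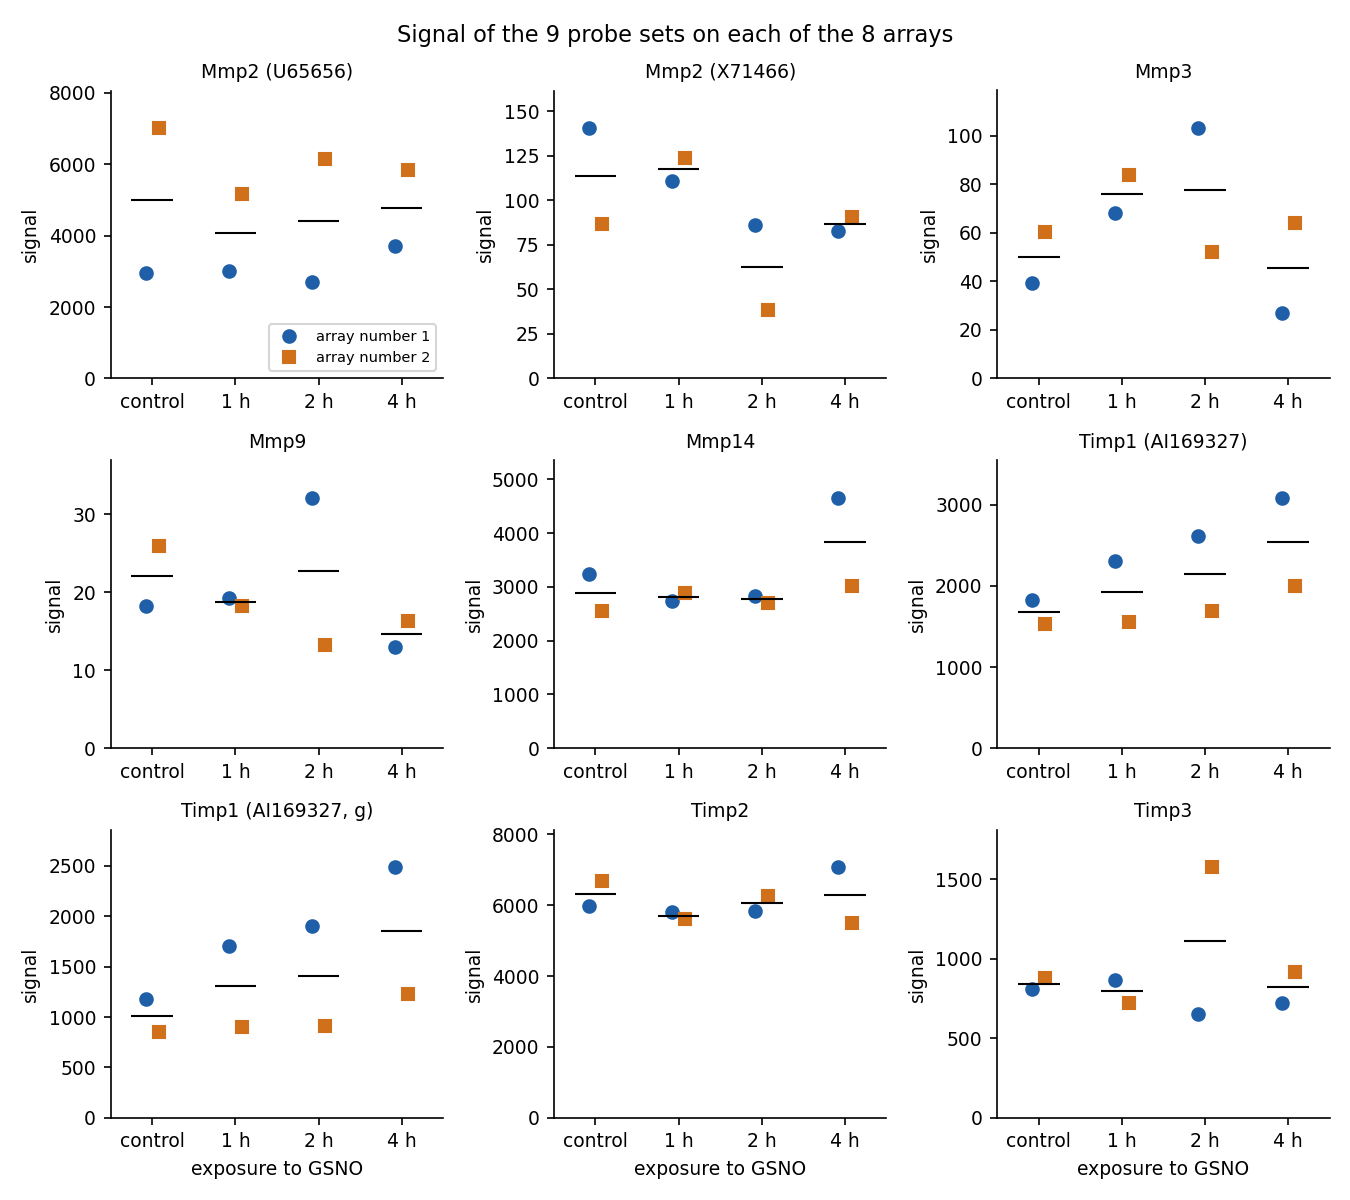
Signal (linear units, each axis from 0) of the 9 probe sets in control and after 1, 2 and 4 h of GSNO, with circles for arrays numbered 1, squares for arrays numbered 2 and a bar for the mean of the pair. Timp1 is highest at 4 h on both arrays, Mmp2 U65656 separates by array number (5155 to 7015 against 2694 to 3709), and Mmp9 stays between 12.98 and 32.1.

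The 4 h log2 fold change of Timp1 was 0.56 ± 0.34 for the first probe set and 0.79 ± 0.48 for the second (SE; limma adjusted p = 0.613 for each). Neither passed the threshold of 0.05 in the fit without a block. With the array number as a block the SEs were 0.17 and 0.19, and the arrays numbered 1 were the higher of the pair in every group. The second probe set then passed (1.73-fold, 95% interval 1.28-fold to 2.34-fold, limma adjusted p = 0.0335), and the first did not (1.48-fold, 1.14-fold to 1.92-fold, adjusted p = 0.0817). Within the arrays numbered 1 and 2 the 4 h differences were 0.75 and 0.37 for the first probe set and 1.07 and 0.52 for the second. The control and 4 h arrays numbered 1 carried different experiment names in the array records, so the larger differences cross recorded experiments. The call was also lost with the experiment named in the array records as the block (log2 0.69, limma adjusted p = 0.228) and without some arrays under the array number block: its adjusted p was 0.311 without control array 1, 0.169 without 4 h array 1, 0.0514 without 4 h array 2, and 0.0645 and 0.0617 without 2 h array 1 or 2. Without a block, the log2 fold change of this probe set was 0.29 without 4 h array 1 and 1.30 without 4 h array 2. Beside it, the summed signal of the 7 fibroblast and adventitial markers measured was 23533 and 17892 on the 4 h arrays and 27879 and 29003 on the control arrays, and that of the 4 kept endothelial markers was 503 and 553 against 2452 and 1433. Edn1, which encodes endothelin 1, made up 1866 and 1056 of the endothelial control sums. Of the 4 kept endothelial markers, 1 was called lower at 4 h and 0 higher, in the fit without the block and with it. The shares over all probe sets tested were 1.53% and 7.93%. The endothelial sum thus does not show a fall common to these markers. The collagen gene Col1a1 made up 11644.5 and 12243.2 of the fibroblast and adventitial control sums, and Col3a1 made up 7711.9 and 10989.8. At 4 h Col1a1 read 10117.7 and 10521.9, and Col3a1 read 6426.8 and 2908.6. The sum of the kept smooth muscle markers was also lower at 4 h, 85530 and 54148 against 90714 and 62958 in control. So were the sums of the macrophage and leukocyte, lung epithelial, and cardiac and skeletal muscle markers, on both array numbers. A lower sum was thus not particular to the fibroblast and endothelial lists. The part of fibroblast, adventitial or endothelial cells in the Timp1 result was not tested.

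Timp2 encodes the inhibitor that serves both to block and, with the Mmp14 product, to activate the Mmp2 enzyme. Its signal was 5968 and 6683 in control, 5811 and 5601 at 1 h, 5849 and 6265 at 2 h, and 7068 and 5514 at 4 h, on arrays 1 and 2. Control values lay inside the range of the 4 h pair, and at 1 h both arrays were slightly below both controls. Its log2 fold changes were -0.15, -0.06 and -0.02 at 1, 2 and 4 h with an SE of 0.24. Timp2 had the narrowest interval among the members at 4 h, from 0.680-fold to 1.44-fold, and from 0.766-fold to 1.28-fold with the block. The probe set carries the suffix s, which marks probes that can match more than 1 transcript.

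Timp3 encodes the inhibitor that stays bound to the matrix and also blocks ADAM and ADAMTS proteases. Its signal was 810 and 879 in control, 865 and 725 at 1 h, 651 and 1574 at 2 h, and 724 and 916 at 4 h, on arrays 1 and 2. The 2 h array numbered 2 was the highest of the 8 and the 2 h array numbered 1 the lowest. Its 2 h mean of 1112 ± 652 (SD, n = 2) thus rests on arrays that moved in opposite directions, by 0.82 and -0.31 on the log2 scale. The log2 fold changes were -0.09, 0.26 and -0.05 at 1, 2 and 4 h, with an SE of 0.39.

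Few or none of the members passed the test at any time. Of the 8 probe sets kept, limma called 0 at 1 h, where it called 0.527% of all 5877 probe sets tested, 0 at 2 h (0.97% of all) and 0 at 4 h (1.53% of all). None of the 8 had an unadjusted p under 0.05 at any of these times in that fit, beside 177, 360 and 654 of all 5877. With the array number as a block the counts were 0 at 1 h (1.34% of all), 0 at 2 h (3.16% of all) and 1 at 4 h, the second Timp1 probe set (7.93% of all). Unadjusted p values under 0.05 then numbered 0, 0 and 2 of 8, beside 337, 712 and 1244 of all 5877. The 2 were those of Timp1, which stem from 1 sequence. Over 8 probe sets the shares called amount to less than 1 probe set. A count of 0 or 1 call thus does not set the members apart from the rest. The median log2 fold change of the 8 was 0.02, 0.10 and 0.01 at 1, 2 and 4 h, beside -0.05, -0.06 and -0.16 over all probe sets tested. Mmp3 enters these medians with 0.46 at 1 h and 0.44 at 2 h, the times of the only arrays through which it was kept. Timp1 enters with 2 probe sets of 1 sequence. The medians thus do not set the members apart from the rest either. Comparing 4 h with 1 h directly, 0 of 8 were called by limma without the block (0.476% of all) and 0 with it (5.1% of all). An unadjusted p under 0.05 was found for 0 and 2 of 8, beside 531 and 1058 of all 5877. The Timp1 differences were 0.39 ± 0.34 and 0.48 ± 0.48 (SE).

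The GSNO and control arrays did not overlap for 2 of the 8 at 1 h, Mmp3 and Timp2, where 23.1% of all probe sets did not, for 1 at 2 h, Mmp2 X71466 (29.9%), and for 2 at 4 h, both of Timp1 (40.9%). Between 4 h and 1 h of GSNO 3 of the 8 did not overlap, Mmp3, Mmp14 and Mmp2 X71466 (38.3%). Mmp3 is in these counts by its numbers alone, since most of its signals were too weak to order, and the 2 h signals of Mmp2 X71466 were weak as well. The absence of a call does not show that a gene stayed the same. Without the block, the 4 h intervals ran from 0.435-fold to 2.39-fold for Mmp2 U65656 and from 0.845-fold to 2.01-fold for Mmp14. Those of Timp2 and Timp3 ran from 0.680-fold to 1.44-fold and from 0.520-fold to 1.80-fold. With the block they ran from 0.768-fold to 1.35-fold for Mmp2 U65656 and from 0.972-fold to 1.75-fold for Mmp14. For Timp2 and Timp3 the block intervals ran from 0.766-fold to 1.28-fold and from 0.605-fold to 1.54-fold.

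**Figure D2:**
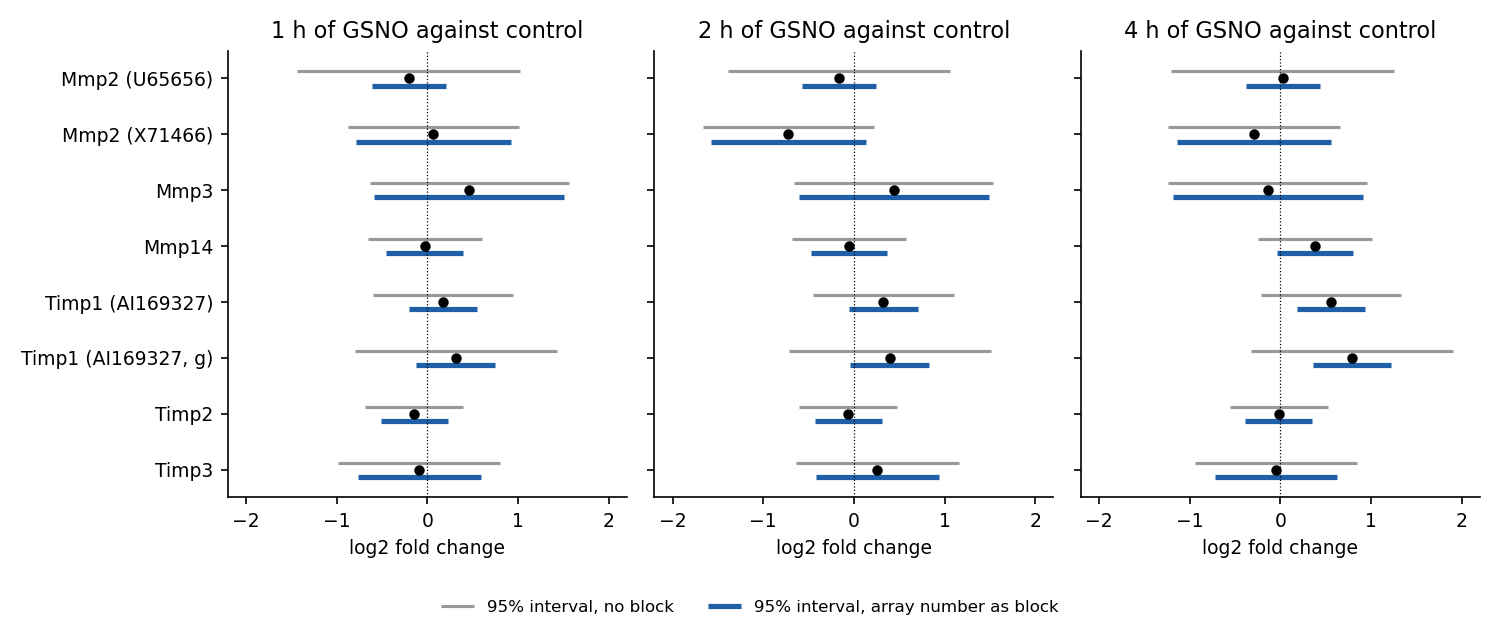
Log2 fold change (dots) of the 8 kept probe sets at 1, 2 and 4 h of GSNO against control, with 95% intervals of the fit without a block (thin grey) and with the array number as a block (thick blue). At 4 h the block intervals of both Timp1 probe sets lie above 0, at 1.14-fold to 1.92-fold and 1.28-fold to 2.34-fold, and those of the other members include 0.

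The array numbers were compared as well. This comparison was added after the values had been seen, with group as a term in the fit. Mmp2 U65656 read 5155 to 7015 on the 4 arrays numbered 2 and 2694 to 3709 on the 4 numbered 1, a difference of 1.94-fold (log2 0.96 ± 0.13, SE; limma adjusted p = 0.0014), and it was higher on the arrays numbered 2 in 4 of 4 groups. Timp1 went the other way in 4 of 4 groups. Its first probe set read 1536 to 1994 on the arrays numbered 2 and 1826 to 3087 on those numbered 1 (log2 -0.51 ± 0.12, SE; limma adjusted p = 0.0138), and its second 848 to 1226 and 1175 to 2485 (log2 -0.85 ± 0.14, SE; limma adjusted p = 0.00275). In all, 3 of the 8 probe sets differed between the numbers, beside 21.7% of all probe sets tested. Timp2 did not pass, with a log2 difference of -0.04 ± 0.12 (SE; limma adjusted p = 0.858), and neither did Mmp14, Timp3, Mmp3 or Mmp2 X71466.

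**Figure D3:**
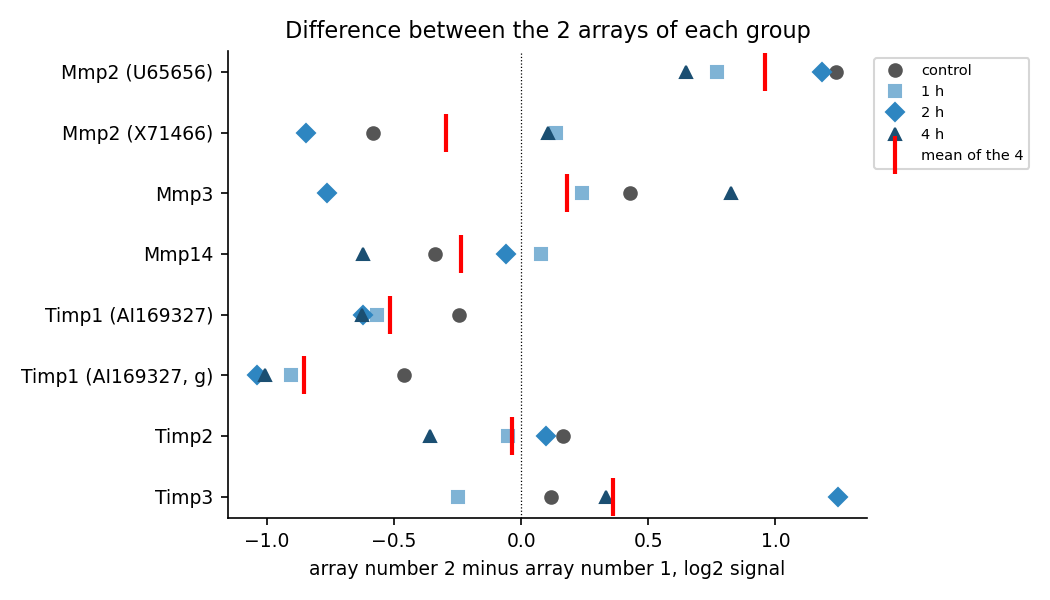
Difference in log2 signal between the array numbered 2 and the array numbered 1 of the same group, for control and 1, 2 and 4 h of GSNO (symbols), with the mean over the 4 groups (red bar). Mmp2 U65656 lies above 0 in every group (mean 0.96) and both Timp1 probe sets lie below it (means -0.51 and -0.85).

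Other genes of matrix proteolysis were counted from lists, using for each gene the kept probe set with the highest mean signal. Of 16 further metalloproteinases and ADAM proteases on the array, Mmp8, Mmp10, Mmp12 and Mmp13 were among 6 that did not reach the 40th percentile on 2 arrays. Of the 10 kept, including Mmp11, Mmp16, Mmp23, Adam10 and Adam17, 0 passed in either direction at 1, 2 or 4 h, with the block or without it. The same held for 10 kept inhibitors and regulators, among them Bsg, which encodes a cell surface inducer of metalloproteinases, Serpine2, an inhibitor of serine proteases, and Cst3, a cathepsin inhibitor. Of all probe sets tested, 0.527%, 0.97% and 1.53% were called at 1, 2 and 4 h without the block, and 1.34%, 3.16% and 7.93% with it. A count of 0 of 10 thus does not set these lists apart from the rest. Median log2 fold changes at 4 h were -0.19 and -0.12 for these lists, beside -0.16 over all probe sets tested.

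The plasminogen system gave 1 gene past the threshold. Plat encodes tissue plasminogen activator, which turns plasminogen into plasmin, a protease that can activate metalloproteinase proenzymes. Its signal was 1504, 8052, 11337 and 8150 in control and at 1, 2 and 4 h on the arrays numbered 1, and 952, 3696, 5248 and 5474 on those numbered 2. All 6 GSNO arrays were above both control arrays. The log2 fold changes were 2.17, 2.67 and 2.46 with an SE of 0.49. Without the block limma gave adjusted p = 0.222, 0.0559 and 0.0594 at 1, 2 and 4 h, and with it 1.26e-04, 2.89e-05 and 3.65e-05. Of the 12 genes kept from the list of the plasminogen system and cathepsins, Plat was thus the 1 called with the block at each time and 0 were called without it. Over all probe sets tested, 1.34%, 3.16% and 7.93% were called with the block at 1, 2 and 4 h. The plasminogen activator Plau and the cathepsins Ctsb, Ctsd and Ctsl were among those not called.

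Of 23 kept matrix substrates, 1 fell at 4 h, Dcn, and 0 rose, beside 1.53% of all probe sets tested called in either direction. Dcn encodes decorin, a small proteoglycan that binds collagen. Its probe set X59859 read 16.04 and 18.5 at 4 h against 170.4 and 199.9 in control, and limma's adjusted p was 0.0452. Both 4 h signals were far under the 40th percentile of their arrays, so the fitted log2 difference of -2.42 is not a measured size. The other kept Dcn probe set gave -0.35 (adjusted p = 0.914), so the fall rests on 1 of the Dcn probe sets. At 2 h X59859 read 157.6 and 372.2 (log2 0.37), so it was not lower there. Collagens, Eln and Fn1 did not pass at any time. With the block Dcn also fell at 1 h, where it read 16.1 and 25.9 (limma adjusted p = 0.0172), and 0 other substrates passed. The shares of all probe sets tested that were called with the block were 1.34%, 3.16% and 7.93% at 1, 2 and 4 h.

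**Figure D4:**
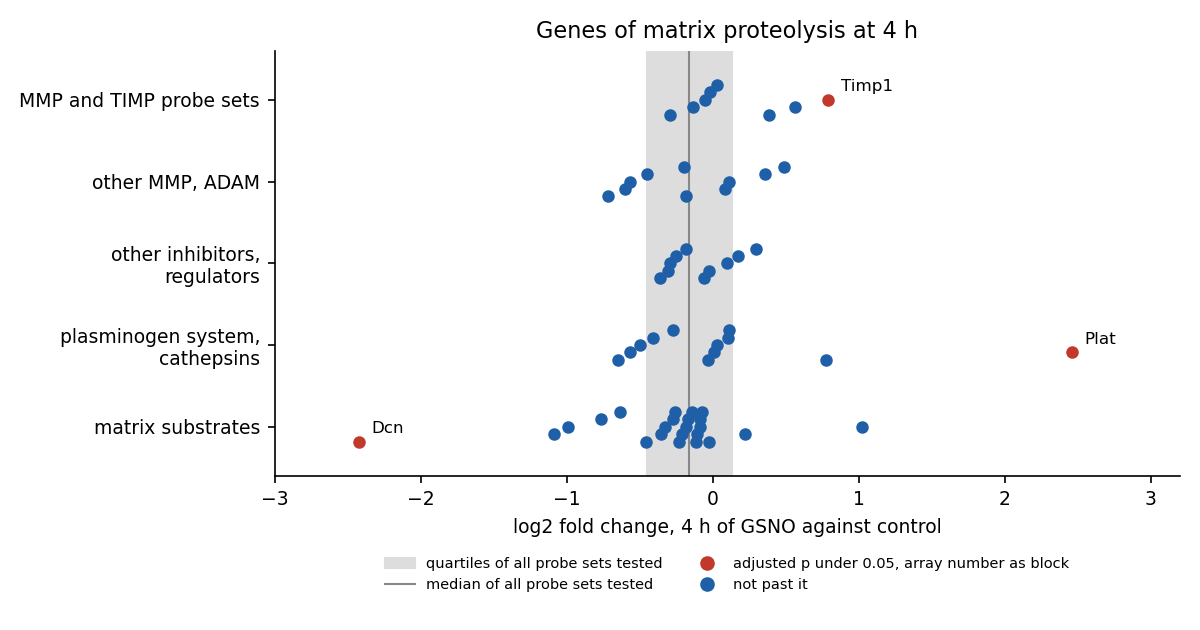
Log2 fold change at 4 h of GSNO against control for the kept probe sets of the MMP and TIMP genes and for genes of 4 lists, with the median of all probe sets tested (grey line, -0.16) and their quartiles (grey band, -0.45 to 0.13). Red points passed with the array number as a block: Timp1 (0.79), Plat (2.46) and Dcn (-2.42).

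A minority of the factors and cytokines known to act on the promoters of proteases and inhibitors passed. Of 17 kept, 3 rose and 0 fell at 1 h, 3 rose and 1 fell at 2 h, and 3 rose and 1 fell at 4 h without the block. With it 4 rose at 1 h, 5 rose and 2 fell at 2 h, and 6 rose and 2 fell at 4 h. Over all probe sets tested, the shares called were 0.527%, 0.97% and 1.53% without the block and 1.34%, 3.16% and 7.93% with it. The list was chosen with earlier results of these data known. The list's median log2 fold change was 0.30, 0.72 and 0.77 at 1, 2 and 4 h. The zinc finger factor Klf4 gave log2 fold changes of 5.11, 5.37 and 4.96, and Cebpb, a leucine zipper factor, gave 2.48, 2.21 and 2.19, and all 6 values passed. Junb, a subunit of AP-1, rose by 2.42 at 1 h (limma adjusted p = 0.0239) and stood at 1.24 and 0.98 afterwards, where it did not pass without the block. Its second probe set gave 2.48 at 1 h (adjusted p = 0.078). The cytokine gene Il6, a known inducer of Timp1, rose at 2 h, to 837 and 403, and at 4 h, to 669 and 1057, against 26.6 and 15.8 in control (limma adjusted p = 0.00518 and 0.00229). Its control signals were under the 40th percentile of their arrays, so no fold is given. Ets1, which encodes an ETS factor, fell by 2.19 at 2 h (limma adjusted p = 0.0387), and its second probe set gave -1.60 (adjusted p = 0.577). At 4 h its probe sets gave -1.71 and -1.90 and did not pass without the block (limma adjusted p = 0.0738 and 0.188). The gene counted as fallen at 4 h without the block was thus another, not named here under the limit of 5 genes a list.

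Patterns most like those of 2 members were looked up among all kept probe sets by Pearson's r of log2 signal over the 8 arrays. For Timp1 these were Prdx2, which encodes a peroxide-reducing enzyme (r = 0.957), Fntb (0.949) and Cox6b1 (0.945). Their 4 h log2 fold changes were 0.54, 0.53 and 0.52, and none of these passed in the fit without a block. For Mmp14 they were Atp6v0c (0.935), Cryaa (0.931) and Skic2 (0.922). The 4 arrays of each number share a run, so these values describe likeness across runs as much as across times.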

How the data were processed

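RNA was measured on 8 arrays. Per the labels' design text, Affymetrix software of version 5.0 was used on the scans. The deposited values are intensity values, 1 linear signal per probe set, with a trimmed mean (2% off each end) of 500.0 on every array. Detection calls were not used here. Other values taken from the deposited files were the experiment records of each array (chip lot, fluidics, experiment, run).

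The 59 control features were left out. The offset added before log2 was 21.1, the median of the arrays' 20th percentiles, so changes of weak probe sets are understated. Kept for testing were 5877 of 8740, those with 2 or more of the 8 arrays at or over that array's 40th percentile. Tests used limma 3.58.1 in R 4.3.3 (lmFit, eBayes with trend, all 4 groups in 1 fit, 4 residual degrees of freedom; two-sided, Benjamini-Hochberg over the 5877), and ran on simulated data first. The number of arrays limits the precision. No 2 arrays of the 28 pairs were identical.

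The array number pairs the arrays by the check that was set: deviations of same-numbered arrays correlated at 0.387 to 0.569 in each of the 6 group pairs, where over 0.1 was needed. The fit with it as a block has 3 residual degrees of freedom.

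Symbols came from GEO's platform annotation: 7018 probe sets had 1 symbol, 308 several and 1473 none; 6994 gene IDs were found in the RefSeq table (GRCr8) and 0 symbols changed. Promoters are RefSeq's, with 5 of 8 members matched. Named outside the members were list genes past the threshold in either fit, at most 5 a list by size, and the 3 probe sets most like each of 2 member genes, those with the lowest F test p when each gene was taken by its kept probe set with the highest mean signal. The members and lists were chosen with earlier results of these data known. Alternatives tried were blocks, scaling, offsets, filters, variance prior and left-out arrays.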

Additional observations from a re-analysis of the deposited data

How the results depend on the processing

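For the members, 0 calls at 1 h, at 2 h and for 4 h against 1 h held under every alternative run, and at 4 h 0 held under all but the array number as a replicate block, which gave 1 (Timp1). Leaving out single arrays gave 0 throughout without the block. Of 968 alternative values of member changes, 70 changed sign with neither value called and 0 reversed a call; those near 0 at 4 h (Mmp2 U65656, Mmp3, Timp2, Timp3) have no settled direction. The second Timp1 probe set stayed above control at 4 h in all settings run, with a log2 fold change of 0.29 without 4 h array 1 and 1.30 without 4 h array 2. Added after seeing the data, the block with scaling to a common median gave 1.01 (limma adjusted p = 0.0408) and with quantile normalization 0.74 (adjusted p = 0.0499). The recorded experiment as the block gave 0.69 (adjusted p = 0.228). Scaling to a common median moved the median of all probe sets at 4 h to 0.04, against -0.16 as deposited. Between array numbers the 3 calls became 2 with that scaling and ran from 2 to 3 without single arrays; the first Timp1 probe set was the one lost (limma adjusted p = 0.0596 with scaling, 0.0816 and 0.0799 without 2 h array 1 or 2).

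Over all probe sets, the 31 calls at 1 h became 79 with the replicate block and 19 when all 8 arrays had to reach the 40th percentile, and ran from 5 to 27 without single arrays. The 57 at 2 h became 186 with the block, 152 with the recorded experiment and 37 with only the groups compared, and ran from 19 to 52. The 90 at 4 h became 466 with the block, 165 with the experiment, and ran from 32 to 87. The 28 for 4 h against 1 h became 300 with the block, 201 with the experiment, 4 without the trend and 0 with only the groups compared, and ran from 0 to 23. Scaling to a common median also moved the split of calls, to 82 higher and 21 lower at 4 h (56 and 34 as deposited) and to 18 and 6 for 4 h against 1 h (12 and 16). The block changed no other call among the members.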
